A study of Mus musculus with 51 samples.

Results

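A list of 33 genes that are induced by the tumour suppressor p53 or that mark cellular senescence was followed across 51 arrays of mouse stromal cell lines. The genes were listed by name. For each gene, the probe sets that named it and no other gene were taken, and of these the probe set with the highest mean signal. This gave values for 29 of the 33 genes, among 19938 genes measured in the same way, and each of the 29 had 1 such probe set. Trp53 (p53 itself), Bax, Gdf15 and Cdkn1a were not analysed here. The 1 probe set that names Cdkn1a, the CDK inhibitor p21, names 2 genes, and for the other 3 genes no probe set naming them alone was used here.

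p53 is a transcription factor that is stabilised by DNA damage and other stresses. It induces genes for cell cycle arrest, cell death, DNA repair and antioxidant defence, and it induces Mdm2, the ubiquitin ligase that degrades p53 in turn. The Cdkn2a locus encodes p16INK4a, an inhibitor of the D-type cyclin kinases that acts through the retinoblastoma protein, and p19ARF, which binds Mdm2 and so protects p53. Cdkn2b encodes the related inhibitor p15INK4b and lies beside Cdkn2a, and the products of this locus are known to accumulate when rodent fibroblasts are kept in culture.

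The study compared clonal stromal lines that do or do not support hematopoietic stem and progenitor cells. From the aorta-gonad-mesonephros region (AGM) of embryonic day 11 (CBAxC57BL/10)F1 embryos, the supportive lines were AM14-1C4, AM30-3F4 and UG26.1B6, and the less-supportive line was UG26.3B5. From embryonic day 14.5 C57BL/6 fetal liver came AFT024 and 2012, labelled supportive, and BFC012, BFC and AFT011, labelled non-supportive. From adult bone marrow came BMC9 (supportive) and BMC10 (less-supportive) of strain H2ts6, and 14F1-1 (supportive) of strain BALB/c. OP9, a supportive line from (C57BL/6xC3H)F2-op/op fetal calvaria, was the other confluent line. H2ts6 is a strain that carries a temperature-sensitive SV40 large T transgene, whose product binds p53 and the retinoblastoma protein, and the labels do not say how the other lines were made permanent. Confluent cultures were grown at 33 °C, except that all 14F1-1 arrays and OP9 replicates 1 and 2 were labelled 37 °C, while OP9 replicate 3 was labelled 33 °C. AFT024 and BFC012 were also grown for 4 days with bone marrow KLS cells (c-Kit+ Sca1+ Lin-, a population rich in hematopoietic stem and progenitor cells) or without them and then sorted as CD45-negative stroma; their temperature was not given. Each of the 17 groups had 3 arrays, and each line is 1 clone, so a difference between lines is a difference between clones. Whether the 3 arrays of a group came from separate cultures is not given, so a p-value here is set against a spread between arrays that could be technical alone.

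The signals were deposited as log2 values that had been normalized in 4 sets of 18, 6, 12 and 15 arrays, with array medians from 5.04 to 7.14, so levels are compared only within a set. The first set held both UG26 lines, AFT024, BFC012, BMC9 and BMC10; the second OP9 and BFC; the third the sorted cells; and the fourth 2012, AFT011, AM14-1C4, AM30-3F4 and 14F1-1. Of 12 stromal marker genes, between 9 and 11 lay above the median gene of the group itself in every group. Of 12 leukocyte markers, 0 did so in any group, and Ptprc (CD45) lay between 4.23 and 4.44 in stroma sorted after growth with KLS cells and between 4.25 and 4.32 in stroma grown alone. The listed genes were set against the median signal over all genes of their normalization set. All 29 lay above it in at least 1 group, and 21 did so in all 17 groups. No filter on low signal was applied.

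The promoters of 3 p53 targets that were all higher in OP9 than in BFC, and of the 2 INK4 genes that separated several line pairs, are shown from RefSeq (build GRCm38.p6), each from 250 bases before to 50 bases after the annotated start and on the strand of the gene. In Ccng1, Mdm2 and Polk the capitals mark a match to the p53 half-site, a palindromic motif of 10 bases, so that a match on either strand is a match on both.
Ccng1 (chr11:40755237-40755536, minus strand): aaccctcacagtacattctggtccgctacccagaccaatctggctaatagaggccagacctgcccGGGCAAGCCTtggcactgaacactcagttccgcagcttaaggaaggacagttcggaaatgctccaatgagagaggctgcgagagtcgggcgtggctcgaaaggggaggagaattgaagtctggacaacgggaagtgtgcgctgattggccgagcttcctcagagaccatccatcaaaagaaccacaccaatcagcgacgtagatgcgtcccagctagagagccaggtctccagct
Mdm2 (chr10:117710709-117711008, minus strand): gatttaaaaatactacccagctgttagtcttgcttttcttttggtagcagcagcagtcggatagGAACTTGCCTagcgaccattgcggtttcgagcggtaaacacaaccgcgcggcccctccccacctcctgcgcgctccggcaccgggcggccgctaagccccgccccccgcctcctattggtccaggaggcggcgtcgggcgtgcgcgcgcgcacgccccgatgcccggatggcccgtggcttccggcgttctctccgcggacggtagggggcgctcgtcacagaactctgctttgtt
Polk (chr13:96519138-96519437, minus strand): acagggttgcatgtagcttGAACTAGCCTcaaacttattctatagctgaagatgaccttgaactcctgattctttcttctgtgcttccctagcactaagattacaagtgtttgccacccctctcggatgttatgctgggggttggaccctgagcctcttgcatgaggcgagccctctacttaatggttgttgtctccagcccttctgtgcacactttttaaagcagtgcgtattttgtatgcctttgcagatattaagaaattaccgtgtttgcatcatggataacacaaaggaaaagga
The first base of the match lies at -185 from the start in Ccng1, at -186 in Mdm2 and at -231 in Polk. RefSeq windows were matched for 20 of the 29 genes, and 7 of the 20 (Aen, Ccng1, Ckap2, Ei24, Mdm2, Polk and Sesn1) held a half-site in at least 1 window, against 9.55% of all 27025 genes in the table. By window, 8 of 30 held one, against 8.36% of all 32851 windows. Such a match is a description of the letters in these windows. The promoters shown were picked for genes higher in OP9 than in BFC. Of the other genes with a half-site, Aen and Ei24 also lay higher in OP9, and Ckap2 and Sesn1 lay lower. Fas, which had the largest difference in OP9, held no half-site in its matched windows. A link between half-sites and the OP9 values was not tested. Windows were not matched for Ddb2, Perp, Pmaip1, Ptprv, Rrm2b, Tnfrsf10b, Trp53inp1, Xpc and Zmat3.

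For the INK4 locus the capitals mark the 50 bases after each annotated start, to show that Cdkn2a has 2 separate starts on 1 strand and that Cdkn2b has its own start beyond them.
Cdkn2a, upstream start (chr4:89294570-89294869, minus strand): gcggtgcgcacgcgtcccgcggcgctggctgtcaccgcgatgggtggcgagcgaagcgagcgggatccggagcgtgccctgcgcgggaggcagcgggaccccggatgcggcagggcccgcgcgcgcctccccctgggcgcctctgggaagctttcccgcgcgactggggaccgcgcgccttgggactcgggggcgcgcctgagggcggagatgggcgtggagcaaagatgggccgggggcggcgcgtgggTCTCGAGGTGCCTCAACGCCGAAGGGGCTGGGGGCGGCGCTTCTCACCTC
Cdkn2a, downstream start (chr4:89282143-89282442, minus strand): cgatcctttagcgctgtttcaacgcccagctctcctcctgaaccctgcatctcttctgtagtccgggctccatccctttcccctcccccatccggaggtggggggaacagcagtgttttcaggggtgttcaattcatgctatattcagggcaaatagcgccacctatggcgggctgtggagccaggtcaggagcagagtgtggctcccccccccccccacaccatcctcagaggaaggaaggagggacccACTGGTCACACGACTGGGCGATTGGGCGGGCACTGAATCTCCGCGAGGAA
Cdkn2b (chr4:89310983-89311282, minus strand): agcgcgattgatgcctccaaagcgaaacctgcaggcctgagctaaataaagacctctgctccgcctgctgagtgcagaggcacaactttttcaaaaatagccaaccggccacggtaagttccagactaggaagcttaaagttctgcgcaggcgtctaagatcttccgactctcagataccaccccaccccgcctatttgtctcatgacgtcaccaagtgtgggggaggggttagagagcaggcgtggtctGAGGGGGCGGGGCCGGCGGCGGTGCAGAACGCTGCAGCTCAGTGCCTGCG
RefSeq lists 2 transcripts of Cdkn2a, and 1 probe set names the gene. Which transcripts its probes cover was not checked, so the values given for Cdkn2a do not separate p16INK4a from p19ARF.

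Before any comparison, 3 arrays stood furthest apart from the other replicates of their group in the p53 targets. In confluent BFC012 replicate 1, 17 of the 29 genes lay more than 0.5 log2 units above the mean of replicates 2 and 3 and 0 lay as far below, while 4.20% of all genes lay that far in either direction. Eda2r, a receptor of the TNF receptor family, was at 9.48, 6.99 and 6.88 in replicates 1, 2 and 3. Fas, the receptor of Fas ligand, was at 7.89, 5.76 and 5.81, and Mdm2 was at 11.33, 10.33 and 10.35. In all of these genes replicate 1 was high and the other replicates lay close together. Trp53inp1, which promotes p53 phosphorylation and autophagy, stood 2.31 above the other arrays, Ak1 (adenylate kinase) 2.04, Btg2 (an antiproliferative gene) 1.60, Polk (a translesion DNA polymerase) 1.38 and Phlda3 (an inhibitor of Akt) 1.21. The INK4 genes did not stand apart in this array: Cdkn2a differed by 0.10, Cdkn2b by 0.18 and Cdkn2c by 0.23. Of 36 other p53 target genes, 15 lay more than 0.5 above and 0 below, and of 25 proliferation genes 0 lay that far in either direction.

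Sorted AFT024-KLS replicate 1 and sorted BFC012-KLS replicate 1 stood apart in the other direction, with 21 and 16 of the 29 genes more than 0.5 below the other arrays of their group and 0 above. In AFT024-KLS the difference was -3.93 for Trp53inp1, -2.98 for Btg2, -2.67 for Fas and -2.11 for Mdm2. In BFC012-KLS it was -3.24 for Fas, -3.00 for Btg2, -2.25 for Trp53inp1 and -1.30 for Mdm2. These 2 arrays also differed in 14.3% and 15.8% of all genes, and 20 and 22 of 25 proliferation genes were more than 0.5 above the other arrays, with 0 below. Over the other 48 arrays, the number of listed genes beyond 0.5 had a median of 1 and a range of 0 to 15; the highest counts belong to the partners of these arrays, whose comparison includes them. AFT024+KLS replicate 1 lay apart to a lesser degree, with 5 listed genes more than 0.5 above and 3 below the other arrays of its group, 11.6% of all genes that far in either direction, and 6 of 25 proliferation genes above and 1 below. The 3 arrays were picked out after their values were seen, so these values are a description, and what set the arrays apart was not tested. Fits that leave them out retest the same genes by which they were picked, so the p-values and counts of such fits are descriptive. Counts of genes past the threshold in the comparison of confluent AFT024 with BFC012 and in those of the sorted groups are given with and without these arrays.

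**Figure D1:**
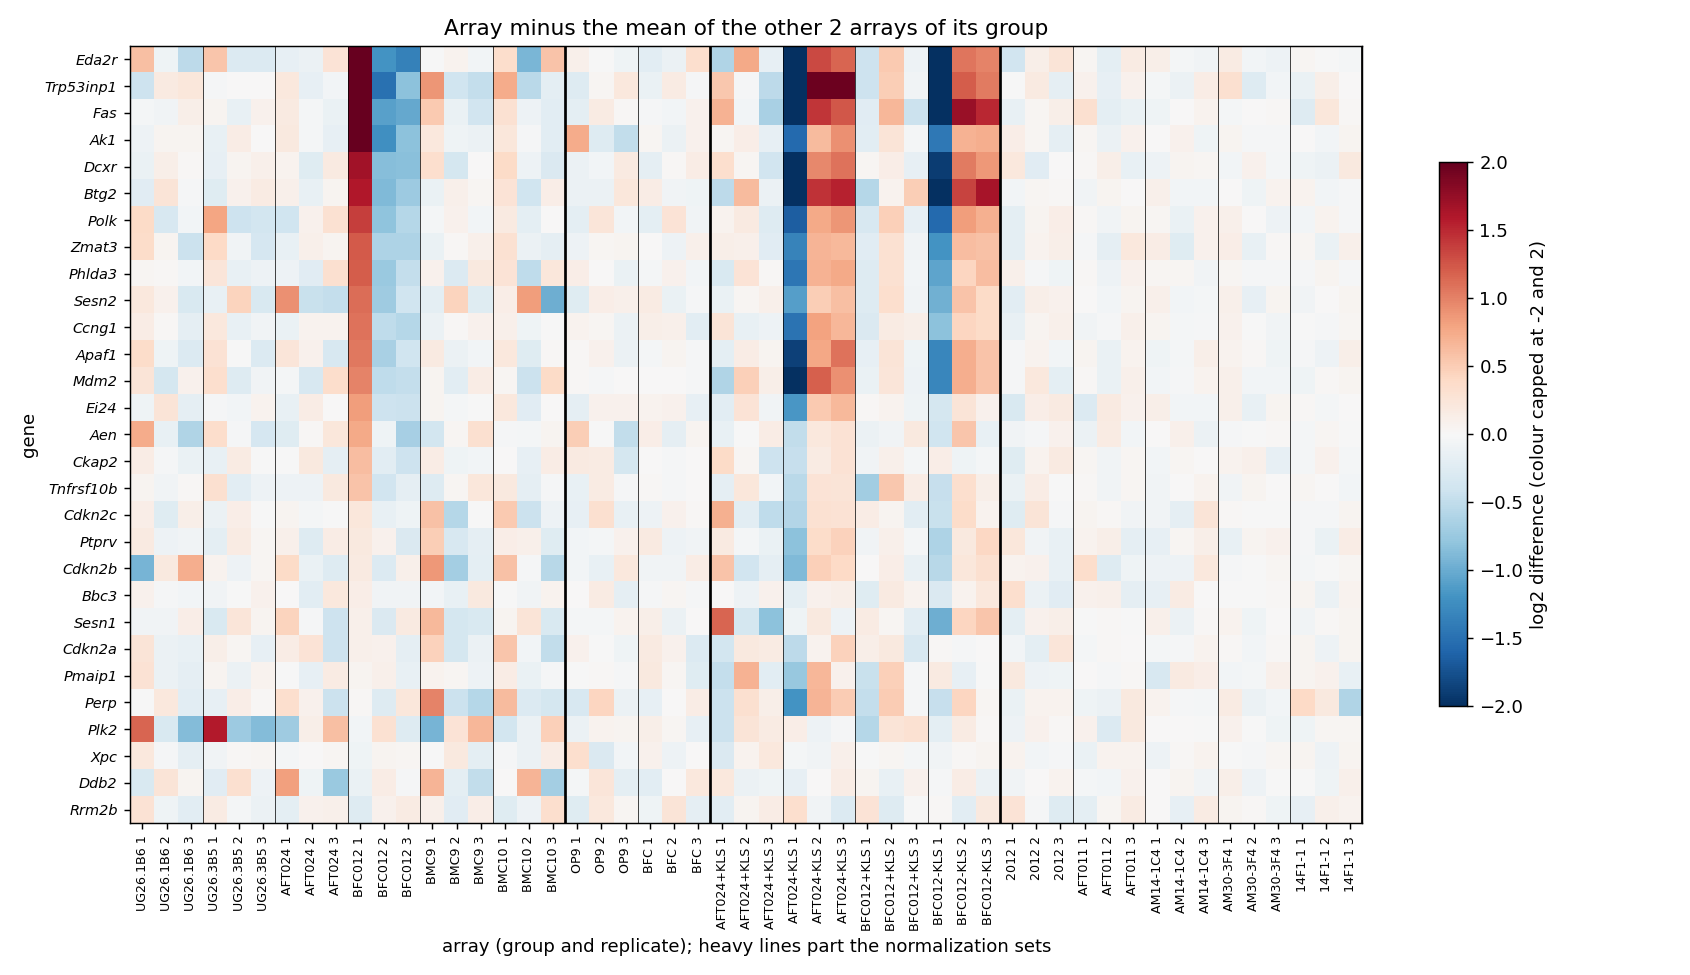
Each cell gives 1 gene (rows, 29 genes) in 1 array (columns, 51 arrays) as the log2 signal minus the mean of the other 2 arrays of the same group, with colours capped at -2 and 2. Confluent BFC012 replicate 1 is high in 17 genes, and replicates 1 of AFT024-KLS and BFC012-KLS are low in 21 and 16 genes.

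OP9 against BFC had more of the 29 genes past the threshold than any other pair of lines, in the fits to all arrays. In this pair 16 of the 29 genes were higher in OP9 and 5 were lower (limma, adjusted p below 0.05), beside 34.4% of all genes called in either direction, 17.5% of all genes higher and 16.9% lower. Arrays of the lines did not overlap in 27 of the 29 genes, beside 44.4% of all genes. In these bulk cultures, fewer cells that make an RNA and less of that RNA per cell cannot be told apart. The median difference of the 29 genes was 0.27, beside 0.01 for all genes. Mdm2 was at 8.89, 8.86 and 8.88 in OP9, against 7.93, 7.94 and 7.92 in BFC. The arrays of the lines did not overlap, and Mdm2 was 1.93-fold higher in OP9 (log2 difference 0.95, SE 0.16, adjusted p = 1.11e-05). The SE rests on the spread over all 39 confluent arrays, BFC012 replicate 1 included, so it does not measure the spread of the OP9 and BFC arrays alone. Without BFC012 replicate 1 in the shared fit, 17 genes were higher and 5 lower, beside 34.9% of all genes called, 17.8% higher and 17.1% lower.

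Among receptors of the TNF receptor family, Fas was at 7.72, 7.96 and 7.87 in OP9, against 4.91, 4.89 and 4.98 in BFC. Every OP9 array was far above every BFC array, a 7.58-fold difference (log2 2.92, SE 0.27, adjusted p = 6.42e-11). Eda2r was also higher (1.12, adjusted p = 0.00966). Among genes of arrest and growth control, Btg2 was at 7.74, 7.75 and 7.98 in OP9, against 6.31, 6.17 and 6.16 in BFC (1.61, SE 0.21, adjusted p = 9.56e-08). Ccng1 (cyclin G1, a regulator of Mdm2) was at 10.95, 10.92 and 10.82 in OP9, against 9.77, 9.76 and 9.55 in BFC (1.21, adjusted p = 2.23e-08). Both genes were separated between the lines in all 6 arrays. Phlda3 was at 8.16, 8.09 and 7.99 in OP9, against 6.00, 6.09 and 5.99 in BFC, a 4.14-fold difference (adjusted p = 8.84e-12). Polk, Trp53inp1 and Ak1 were higher by 1.61, 1.60 and 1.56.

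The 5 genes that were lower in OP9 were Perp, Cdkn2a, Cdkn2c, Ddb2 and Ckap2. Perp, a tetraspan membrane protein of desmosomes that also acts in p53-dependent death, was at 4.38, 4.89 and 4.52 in OP9, against 6.25, 6.36 and 6.46 in BFC (-1.76, SE 0.19, adjusted p = 2.01e-09). Cdkn2a was at 5.34, 5.28 and 5.23 in OP9, against 6.67, 6.60 and 6.36 in BFC (-1.26, adjusted p = 7.59e-10). Cdkn2c, which encodes the INK4 inhibitor p18, was at 7.13, 7.45 and 7.14 in OP9, against 8.48, 8.61 and 8.56 in BFC (-1.31, adjusted p = 6.14e-10). The arrays did not overlap in any of these genes. Ddb2, a sensor of ultraviolet damage in nucleotide excision repair, was lower at a difference of -1.08 and Ckap2, a spindle protein, at -0.57. Cdkn2b was at 6.39, 6.32 and 6.56 in OP9, against 6.13, 6.14 and 6.28 in BFC, and did not pass the test (0.24, adjusted p = 0.40).

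**Figure D2:**
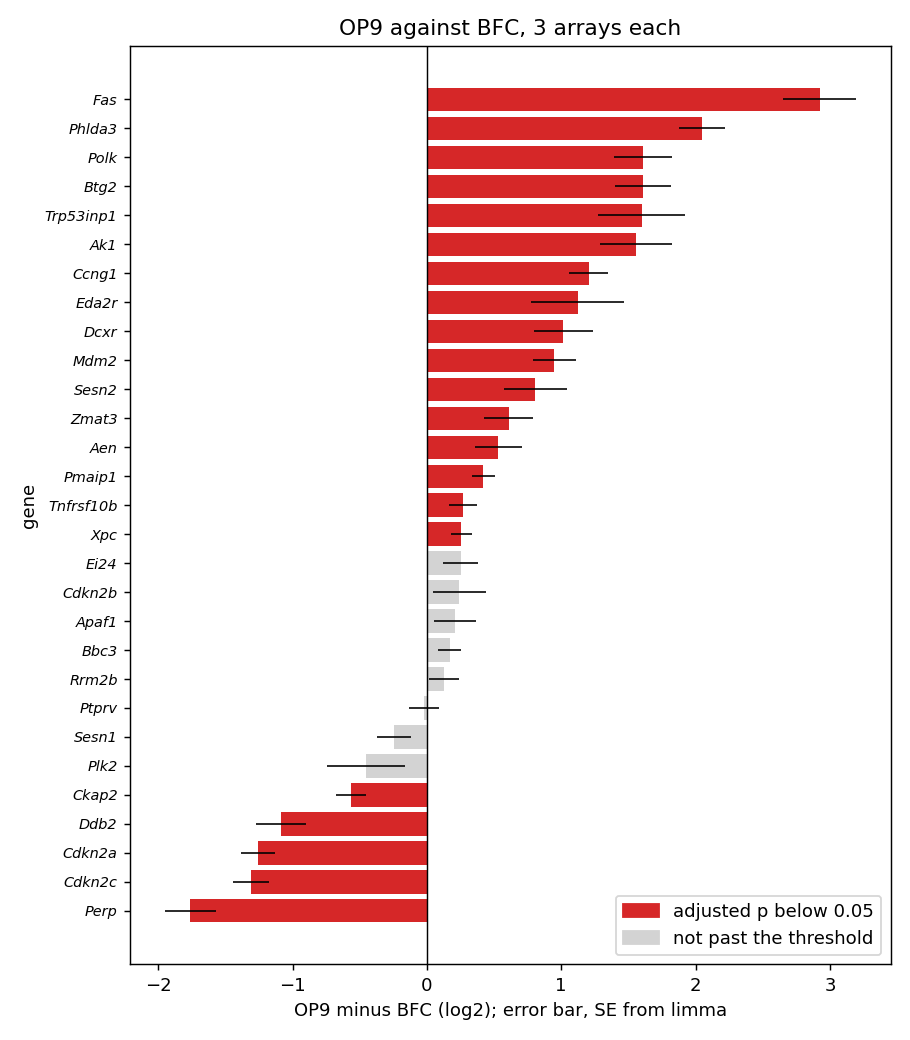
Bars give the log2 difference OP9 minus BFC for each of the 29 genes (3 arrays per line). Error bars give the standard error from the limma fit to all 39 confluent arrays, and red bars have an adjusted p below 0.05. The 16 higher genes run up to Fas at 2.92 and the 5 lower genes down to Perp at -1.76.

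Other lists moved with this pair. Of 36 other p53 target genes, 18 were higher in OP9 and 2 lower, among them Cd80 (3.81), Vcan (2.96) and Kitl (2.73) on the higher side. Of 25 proliferation genes, 0 were higher and 24 lower, with a median difference of -0.74, such as the mitotic checkpoint kinase gene Bub1 (-1.66) and the cyclin genes Ccnb2 (-1.42) and Ccna2 (-1.24). Of 30 genes of p53 regulation and DNA damage signalling, 4 were higher and 13 lower, among them the kinase Chek1 (-1.14) and Nbn (-1.07), while Mdm4, a p53 inhibitor related to Mdm2, was higher (0.79). The part of the lower proliferation genes in the p53 target values was not tested. OP9 replicates 1 and 2 were labelled 37 °C and the BFC arrays 33 °C, so for these replicates line and temperature cannot be told apart. OP9 replicate 3, labelled 33 °C, gave a difference from the BFC mean of the same sign as replicates 1 and 2 in 28 of 29 genes. Ptprv was the exception (0.04 in replicate 3, -0.05 in replicates 1 and 2). In the 27 genes whose arrays did not overlap between the lines, the signs had to match, so this count does not test temperature. The share of all genes with matching signs is not given here. For Mdm2 the difference was 0.95 in replicate 3 and 0.95 in replicates 1 and 2, and for Fas 2.94 and 2.91. Replicate 3 is a single array, so its differences are given without a test.

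Across the 5 lines of the fourth set, 27 of the 29 genes differed (limma F test, adjusted p below 0.05), beside 61% of all genes; Bbc3 (PUMA) and Ccng1 did not pass. The median range of line means was 0.85 for the 29 genes, beside 0.41 for all genes. Perp varied most. It was at 9.86, 9.84 and 10.05 in AFT011, 7.88, 7.69 and 7.74 in AM30-3F4, 6.62, 6.75 and 6.75 in 2012, 5.99, 5.93 and 5.92 in AM14-1C4, and 5.95, 5.81 and 5.28 in 14F1-1. The lines formed separate steps except that AM14-1C4 and 14F1-1 overlapped. The range of line means was 4.23 (adjusted p = 4.52e-14). Plk2, a kinase of the stress response, came next with a range of 2.37, lowest in 14F1-1 and highest in AM14-1C4. Cdkn2a (1.86), Cdkn2c (1.66), Mdm2 (1.56), Cdkn2b (1.51), Sesn1 (1.14) and Btg2 (1.04) followed.

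Across the 6 lines of the first set, 16 of the 29 genes differed, beside 46.9% of all genes. Without BFC012 replicate 1, an alternative added after the data were seen, the count was 25, beside 45.5% of all genes. It was also 25 without replicate 1 of every line, beside 43.2%, 7 without replicate 2, beside 29.2%, and 6 without replicate 3, beside 31.3%. Perp had the widest range of the 29 genes with all arrays, 4.17, from 10.05 ± 0.16 in BFC012 (SD, n = 3) to 5.88 in BMC10. Cdkn2a (2.09), Plk2 (1.71), Cdkn2b (1.67), Ak1 (1.36), Sesn2, a stress-induced relative of Sesn1 (1.26), Ddb2 (1.24) and Zmat3 (1.15) came next. This order rested in part on BFC012 replicate 1. Without it, the range was 2.04 for Ak1 and 1.73 for Eda2r, both lowest in BFC012, and 1.41 for Sesn2 and for Trp53inp1, against 2.09 for Cdkn2a, 1.73 for Cdkn2b and 4.17 for Perp. Cdkn2a was lowest in UG26.3B5 and highest in BMC10 in either fit. Markers of mesothelium, an epithelial cell type, were high in some of the same lines: 5 of 6 lay above the median gene in BFC012 and in AFT011 and 4 in BFC, against 1 in AFT024 and 2 in 2012 and in OP9. Of the 6 markers, 1 was higher and 5 were lower in AFT024 than in BFC012. In 2012 against AFT011, 1 was likewise higher and 5 were lower. Perp was at 9.58, 9.40 and 9.06 in AFT024. AM30-3F4, with 0 of 6 markers above the median gene, had the second highest Perp of the fourth set. How these markers relate to the Perp values was not tested.

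Mdm2 showed a narrower pattern. In the fourth set it averaged 12.64 ± 0.04 in AM14-1C4, 11.62 ± 0.06 in AM30-3F4, 11.51 ± 0.05 in 14F1-1, 11.11 ± 0.08 in AFT011 and 11.08 ± 0.14 in 2012 (SD, n = 3), and the last 2 lines overlapped. The adjusted p of the F test was 1.17e-11. In the first set its line means spanned 0.76, from 11.17 in UG26.3B5 to 10.41 in BMC10, and did not pass (adjusted p = 0.0779). They spanned 0.83 without BFC012 replicate 1, down to 10.34 in BFC012, and passed (limma F test, adjusted p = 0.00205).

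**Figure D3:**
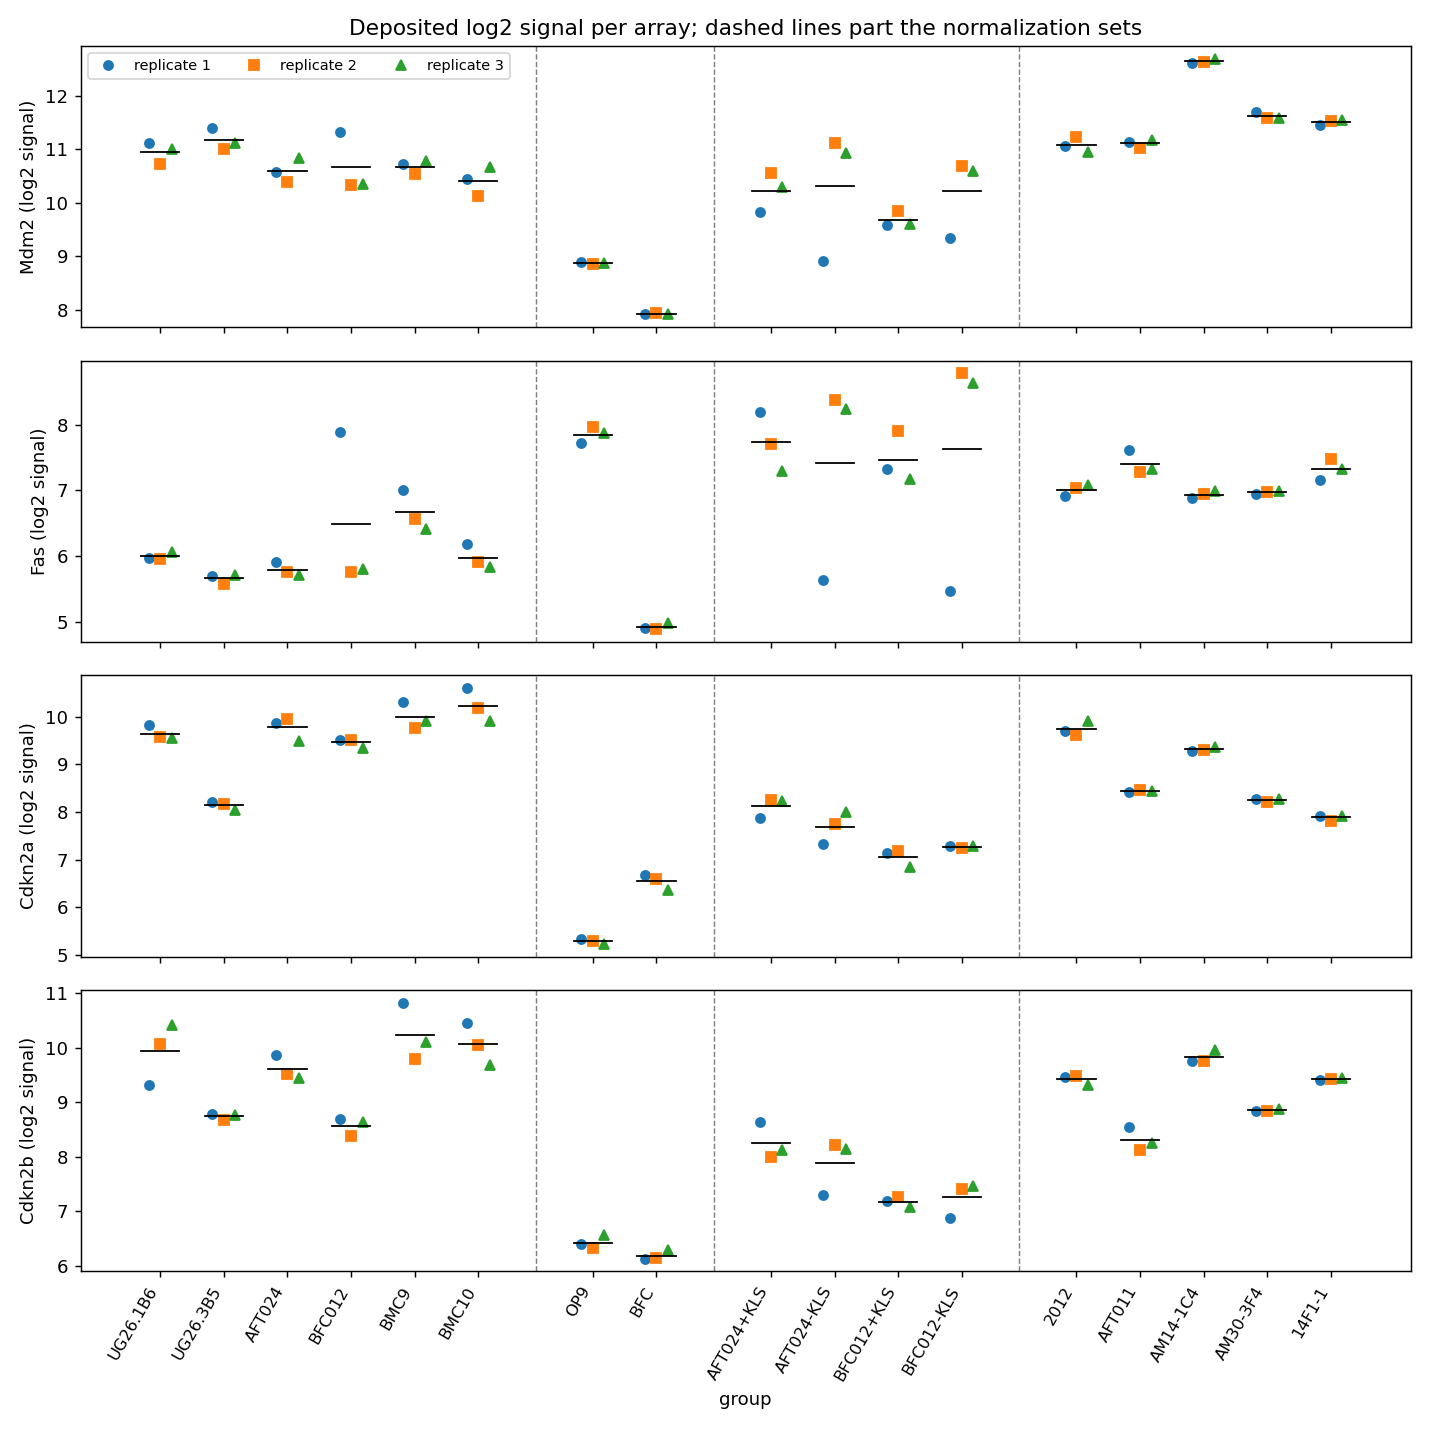
Points give the deposited log2 signal of Mdm2, Fas, Cdkn2a and Cdkn2b in every array by group, horizontal bars the group mean of 3 arrays, and dashed lines part the normalization sets, between which levels are not compared. In the fourth set Mdm2 is highest in AM14-1C4 (mean 12.64), and in BFC012 and both -KLS groups replicate 1 lies apart from replicates 2 and 3 for Mdm2 and Fas.

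The INK4 genes separated several pairs of a supportive and a less- or non-supportive line. In the AGM pair, Cdkn2a was at 9.82, 9.57 and 9.55 in UG26.1B6, against 8.22, 8.17 and 8.04 in UG26.3B5. All arrays of the supportive line were higher, by 2.84-fold on average (log2 1.51, SE 0.13, adjusted p = 1.2e-10). Cdkn2b was at 9.32, 10.07 and 10.42 in UG26.1B6, against 8.79, 8.67 and 8.77 in UG26.3B5 (1.19, SE 0.20, adjusted p = 6.07e-05). Again no arrays overlapped, with a wider spread in UG26.1B6. Cdkn2c moved the other way, at 9.22, 8.97 and 9.20 in UG26.1B6, against 9.53, 9.69 and 9.60 in UG26.3B5 (-0.48, adjusted p = 0.019). Pmaip1, the BH3-only death gene Noxa, was higher by 0.35 (adjusted p = 0.00784), and Mdm2 was at 11.12, 10.72 and 11.01 in UG26.1B6, against 11.39, 11.00 and 11.12 in UG26.3B5, with overlap (adjusted p = 0.487). In all, 3 of the 29 genes were higher and 1 lower, beside 8.56% of all genes called, 4.34% higher and 4.22% lower. Arrays did not overlap in 11 of the 29, beside 23.2% of all genes. With the replicate number as a block, by which the arrays of this pair deviate together, 8 were higher and 1 lower, beside 11.1% of all genes called. Without BFC012 replicate 1 in the shared fit, 5 were higher and 1 lower, beside 9.18%, 4.67% higher and 4.51% lower. Of the 36 other p53 targets 0 were higher and 2 lower, and of the Rb pathway list Ccnd2 (cyclin D2) was higher by 2.90 and E2f4 lower (-0.30).

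In the fetal liver pair of the fourth set, Cdkn2a was at 9.71, 9.62 and 9.91 in 2012, against 8.41, 8.46 and 8.45 in AFT011 (1.31, SE 0.13, adjusted p = 7.02e-10). Cdkn2b was at 9.47, 9.48 and 9.32 in 2012, against 8.54, 8.13 and 8.25 in AFT011 (1.12, adjusted p = 3.99e-05). Both genes were higher in every 2012 array. Perp, described above, differed by -3.21, a 9.25-fold lower level in 2012 (adjusted p = 1.79e-15). Cdkn2c (-0.50), the death receptor gene Tnfrsf10b (-0.51) and the repair gene Xpc (-0.25) were lower, and Sesn1, a stress-induced inhibitor of mTORC1, was higher by 0.51. Mdm2 was at 11.06, 11.22 and 10.95 in 2012, against 11.13, 11.03 and 11.18 in AFT011 (-0.04, adjusted p = 0.885), and these arrays overlapped. Together 3 genes were higher and 4 lower, beside 27.6% of all genes called, 13.4% higher and 14.1% lower. For 15 of the 29 genes no arrays overlapped, beside 39.9% of all genes. Without BFC012 replicate 1 in the shared fit, 5 were higher and 7 lower, beside 28% of all genes called, 13.6% higher and 14.3% lower.

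The neighbours of the locus were looked at beside it. Of the 8 genes listed on this stretch of chromosome 4, which include Cdkn2a and Cdkn2b, 3 were higher in UG26.1B6 than in UG26.3B5, the other being Elavl2 (1.16), and 0 were lower. In 2012 against AFT011, 4 were higher and 2 lower, with Focad at -0.52. Mtap, which lies next to Cdkn2a, was lower in OP9 than in BFC (-0.88, adjusted p = 4.23e-11), as was Focad (-0.84).

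In the other fetal liver pair, confluent AFT024 against BFC012, Cdkn2b was at 9.86, 9.52 and 9.44 in AFT024, against 8.69, 8.38 and 8.64 in BFC012 (1.04, SE 0.20, adjusted p = 8.35e-05). Cdkn2a was at 9.87, 9.96 and 9.50 in AFT024, against 9.52, 9.51 and 9.34 in BFC012. The Cdkn2b arrays were apart and the Cdkn2a arrays overlapped, and Cdkn2a did not pass (0.32, adjusted p = 0.066). It passed in 3 of 13 alternatives (limma, adjusted p down to 0.0105). Cdkn2c was at 9.34, 9.28 and 9.30 in AFT024, against 10.22, 9.97 and 10.01 in BFC012 (-0.76, adjusted p = 2.34e-05). Rrm2b, a p53-induced ribonucleotide reductase subunit, was higher by 0.52, and Perp (-0.71), Ckap2 (-0.62) and Xpc (-0.24) were lower. Of the genes past the threshold whose arrays overlapped, Ak1 was higher by 1.08, and Dcxr, Ddb2, Ei24 and Tnfrsf10b were lower, with differences between -0.60 and -0.36. The differences without BFC012 replicate 1 were -0.04 for Dcxr, -0.09 for Ei24 and -0.17 for Tnfrsf10b, none past the threshold, and -0.63 for Ddb2, which passed (limma, adjusted p = 0.0215). With all arrays 3 genes were higher and 8 lower, beside 28.5% of all genes called, 15.6% higher and 12.9% lower. Arrays did not overlap in 6 of the 29, beside 33% of all genes. Without BFC012 replicate 1, 7 were higher and 5 lower, beside 26.6%, 15.1% higher and 11.6% lower. The genes Ak1 (1.76), Eda2r (1.38), Phlda3 (0.77) and Btg2 (0.69) were then higher in AFT024, with adjusted p between 1.68e-12 and 2.08e-06. BFC012 replicate 1 was picked out for high values of these same genes, so these p-values are no independent support. The Mdm2 difference was 0.25 without BFC012 replicate 1 (adjusted p = 0.155) and -0.08 with it (adjusted p = 0.811). Of the other p53 targets 13 were higher and 3 lower with all arrays, led by Steap3 (2.32) and Trp53i11 (2.05), and 16 were higher and 3 lower without it.

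The bone marrow pair gave another pattern. Perp was at 8.22, 7.27 and 7.18 in BMC9, against 6.30, 5.69 and 5.65 in BMC10 (1.68, SE 0.19, adjusted p = 2.57e-08). Ptprv, a p53-induced receptor tyrosine phosphatase, was at 7.89, 7.35 and 7.43 in BMC9, against 6.71, 6.68 and 6.46 in BMC10 (0.94, adjusted p = 4.99e-08). All BMC9 arrays were above all BMC10 arrays in both genes. Dcxr (0.65), Zmat3, an RNA-binding growth suppressor (0.55), and Sesn1 (0.47) were higher too, and Rrm2b and Pmaip1 were each lower at a difference of -0.35. Of these 5, Dcxr, Zmat3 and Sesn1 each no longer passed in 6 of the 14 alternatives run (adjusted p up to 0.227, 0.201 and 0.21), Rrm2b in 7 (up to 0.233) and Pmaip1 in 1 (0.0507). The counts were 5 higher and 2 lower, beside 15.5% of all genes called, 7.28% higher and 8.18% lower. For 11 of the 29 genes no arrays overlapped, beside 25.9% of all genes. Without BMC10 replicate 3 the count of genes past the threshold was 4, and the share of all genes in that fit is not given here. Cdkn2a was at 10.31, 9.76 and 9.92 in BMC9, against 10.60, 10.19 and 9.91 in BMC10, and Cdkn2b at 10.82, 9.79 and 10.11 in BMC9, against 10.45, 10.05 and 9.69 in BMC10. Both overlapped between the lines, with adjusted p = 0.257 and 0.655, and Mdm2 differed by 0.27 (adjusted p = 0.323). Cdkn2a passed in 2 of 14 alternatives (limma, adjusted p down to 0.0406).

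The supportive AGM lines AM14-1C4 and AM30-3F4, which carry the same label, also differed in Cdkn2a, Cdkn2b and Mdm2. Cdkn2a was at 9.29, 9.30 and 9.36 in AM14-1C4, against 8.28, 8.22 and 8.27 in AM30-3F4 (1.06, adjusted p = 3.13e-08). Cdkn2b was at 9.76, 9.75 and 9.96 in AM14-1C4, against 8.83, 8.84 and 8.88 in AM30-3F4 (0.97, adjusted p = 0.000158). Mdm2 was at 12.61, 12.62 and 12.69 in AM14-1C4, against 11.69, 11.59 and 11.59 in AM30-3F4 (1.02, adjusted p = 3.74e-06). In all 3 genes the lines were fully apart, by about 1 log2 unit. Ddb2 (0.85), Dcxr (0.58), Sesn1 (0.42) and Ckap2 (0.42) were also higher, while Perp (-1.83), Phlda3 (-0.79), Rrm2b (-0.50) and Pmaip1 (-0.23) were lower. The counts were 7 higher and 4 lower, beside 31.6% of all genes called, 15.9% higher and 15.8% lower. Arrays did not overlap in 19 of the 29, beside 50.3% of all genes. Without BFC012 replicate 1 in the shared fit, 8 were higher and 7 lower, beside 32.1% of all genes called, 16.2% higher and 15.9% lower. Of 34 senescence-associated secreted factors and chromatin genes, 14 were higher and 7 lower, with Il6 (3.22) and Ccl7 (3.22) higher and Tnfrsf11b (-2.98) lower. Of 8 macrophage markers 3 were higher in AM14-1C4 and 0 lower: Lyz2 (4.00), Cd14 (1.65) and Csf1r (1.06) passed, while Adgre1 (-0.01) and Cd68 (-0.05) did not. The mean of the list was 7.19 to 7.23 in AM14-1C4 arrays and 6.30 to 6.35 in AM30-3F4 arrays, with 3 markers above the median gene in AM14-1C4 and 1 in AM30-3F4, and their part in the values above was not tested.

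**Figure D4:**
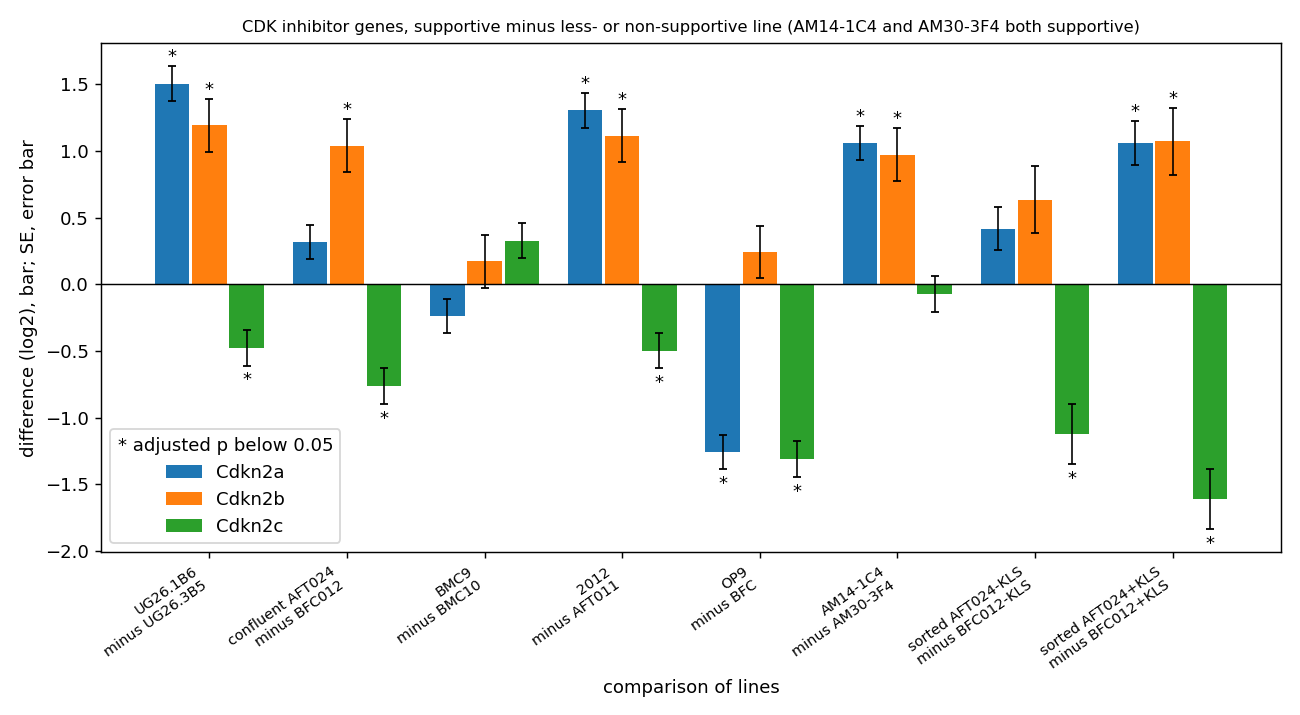
Bars give the log2 difference of Cdkn2a, Cdkn2b and Cdkn2c in 8 comparisons of lines, with the standard error from limma, and an asterisk marks an adjusted p below 0.05. Cdkn2a reaches 1.51 in UG26.1B6 against UG26.3B5 and -1.26 in OP9 against BFC, and Cdkn2c is below 0 in 7 of the 8.

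Support as such was tested over the means of 12 lines, with terms for tissue and normalization set. OP9, the only line from calvaria, was left out, so its lower Cdkn2a against BFC did not enter this test. BFC was then the only line of its normalization set, so the term for the set took up its value. Less-supportive and non-supportive lines were pooled as 1 group. None of the 29 genes passed (limma, 0 of 19938 genes did), and 1 had an unadjusted p below 0.05, beside 4.76% of all genes. That gene was Cdkn2b, with a difference of 0.81 (SE 0.27, unadjusted p = 0.0199, adjusted p = 0.895). Mdm2 differed by 0.07 (SE 0.22). The 3 pairs of the first set were also compared with each other in a test added after the data were seen: 16 of the 29 genes had differences that varied among the AGM, fetal liver and bone marrow pairs, beside 32.2% of all genes, and 19 did so without BFC012 replicate 1, beside 31.6%.

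In stroma sorted after growth with KLS cells, the INK4 genes separated the lines. Cdkn2a was at 7.87, 8.25 and 8.23 in AFT024+KLS, against 7.13, 7.19 and 6.85 in BFC012+KLS (1.06, SE 0.16, adjusted p = 0.00181). Cdkn2b was at 8.63, 7.99 and 8.13 in AFT024+KLS, against 7.19, 7.26 and 7.08 in BFC012+KLS (1.07, adjusted p = 0.0176). Cdkn2c was at 8.25, 7.63 and 7.44 in AFT024+KLS, against 9.49, 9.42 and 9.24 in BFC012+KLS (-1.61, adjusted p = 0.001). No arrays overlapped in these genes. Pmaip1 (0.99), Plk2 (0.94) and Rrm2b (0.49) were higher and Ddb2 (-0.51) was lower, which made 5 higher and 2 lower, beside 11.6% of all genes called, 6.09% higher and 5.52% lower. For 18 of the 29 genes no arrays overlapped, beside 32.1% of all genes. Without BFC012+KLS replicate 3 the count of genes past the threshold was 4, and the share of all genes in that fit is not given here. Without replicate 1 of all 4 sorted groups, 11 were higher and 5 lower, beside 23.8%, 12.8% higher and 11% lower. Some genes passed in that fit but not with all arrays. They include Eda2r (1.22), Phlda3 (1.07), Btg2 (0.85) and Mdm2 (0.70) on the higher side and Sesn1 (-1.29) on the lower.

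Without KLS cells, 0 of the 29 genes were higher in AFT024-KLS than in BFC012-KLS and 2 were lower, beside 7.32% of all genes called, 3.51% higher and 3.81% lower. The lower genes were Cdkn2c, at 7.46, 8.05 and 8.04 in AFT024-KLS, against 8.67, 9.22 and 9.02 in BFC012-KLS (-1.12, adjusted p = 0.0125), and Ddb2 (-0.36, adjusted p = 0.0405). The Ddb2 call was lost in 9 of the 13 alternatives run, with an adjusted p of up to 0.15. For 8 of the 29 genes no arrays overlapped, beside 25.2% of all genes. Cdkn2a was at 7.33, 7.74 and 7.99 in AFT024-KLS, against 7.28, 7.25 and 7.28 in BFC012-KLS (adjusted p = 0.163). Its arrays did not overlap, and it passed in 3 of 13 alternatives (limma, adjusted p down to 0.00455), with differences from 0.27 to 0.60 over all of them. Cdkn2b was at 7.30, 8.21 and 8.15 in AFT024-KLS, against 6.88, 7.41 and 7.47 in BFC012-KLS (0.63, adjusted p = 0.167). The arrays overlapped in Cdkn2b, and it passed in 4 of 13 alternatives, among them without replicate 1 of all 4 groups (0.74, adjusted p = 0.000584). With the replicate number as a block, which was read with uncertainty as pairing these arrays, 3 genes were higher and 2 lower, beside 15.8% of all genes called. Without replicate 1 of all 4 groups 5 were higher and 2 lower, beside 19.3%, 9.93% higher and 9.39% lower. Leaving out single arrays moved the count between 0 and 4, with 4 without AFT024-KLS replicate 1, 0 without BFC012-KLS replicate 2 and 1 without each of the other 4. The share of all genes called in these fits is not given here.

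With all arrays, growth with KLS cells changed 0 of the 29 genes in either line (limma, adjusted p below 0.05), beside 0.351% of all genes called in AFT024 (0.296% higher and 0.0552% lower) and 0.883% in BFC012 (0.612% higher and 0.271% lower). At an unadjusted p below 0.05 there were 3 in AFT024, beside 9.25% of all genes, and 5 in BFC012, beside 10.2%. Arrays did not overlap in 1 of the 29 genes in AFT024, beside 14.5% of all genes, and in 7 in BFC012, beside 17.3%. Without BFC012-KLS replicate 1 alone, 2 passed in BFC012, and the share of all genes in that fit is not given here. Mdm2 was at 9.83, 10.55 and 10.30 in AFT024+KLS, against 8.91, 11.12 and 10.93 in AFT024-KLS. It was at 9.59, 9.84 and 9.61 in BFC012+KLS, against 9.35, 10.69 and 10.60 in BFC012-KLS. In both lines replicate 1 grown alone lay below the arrays grown with KLS cells, and replicates 2 and 3 grown alone lay above them. Without replicate 1 of all 4 groups, an alternative that leaves 2 arrays per group, 0 of the 29 genes were higher and 7 lower in AFT024+KLS, beside 6.06% of all genes called, 3.41% higher and 2.65% lower. In BFC012+KLS 2 were higher and 14 lower, beside 7.9% of all genes called, 4.2% higher and 3.71% lower. Replicate 1 of the -KLS groups had been picked out for low values of the listed genes, so these counts are a description.

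In BFC012, Btg2 was at 7.18, 7.61 and 7.89 with KLS cells, against 6.44, 9.34 and 9.54 without. Without replicate 1 it was lower with KLS cells (-1.69, SE 0.16, adjusted p = 0.000144). Fas was at 7.32, 7.91 and 7.18 with KLS cells, against 5.47, 8.78 and 8.64 without, and was lower once replicate 1 was left out (-1.17, adjusted p = 0.00578). In each gene replicates 2 and 3 grown alone were the highest arrays and replicate 1 grown alone the lowest. That array was picked out for such low values, and leaving it out raises the mean without KLS cells and narrows the spread. The p-values of this fit are therefore no independent support for a response to KLS cells. Eda2r (-1.11), Mdm2 (-0.92), Zmat3 (-0.86), Tnfrsf10b (-0.83), Dcxr (-0.77), Sesn2 (-0.77), Apaf1, the scaffold of the apoptosome (-0.75), and Polk (-0.73) were lower in the same fit. Sesn1 (0.60) and Perp (0.59) were higher. Sesn1 was at 9.30, 9.22 and 9.05 in BFC012+KLS, against 7.56, 8.49 and 8.57 in BFC012-KLS, so it was higher in every array, replicate 1 included.

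In AFT024, the 7 genes that were lower without replicate 1 were Btg2 (-1.10, adjusted p = 0.0031), Fas (-0.80), Apaf1 (-0.62), Mdm2 (-0.605, adjusted p = 0.0195), Polk (-0.58), Cdkn2c (-0.51) and Ptprv (-0.40). Btg2 was at 8.07, 8.84 and 8.35 in AFT024+KLS, against 6.71, 9.66 and 9.72 in AFT024-KLS. Again replicate 1 grown alone was the lowest array and replicates 2 and 3 grown alone were the highest. The same limit applies to the p-values of this fit in AFT024. The proliferation genes moved with these values in BFC012: without replicate 1, 23 of 25 were higher with KLS cells and 0 lower, with a median difference of 0.96, against 1 higher and 0 lower in AFT024. With all arrays 0 of 25 passed in either line. The part of the proliferation genes in the p53 target values was not tested.

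**Figure D5:**
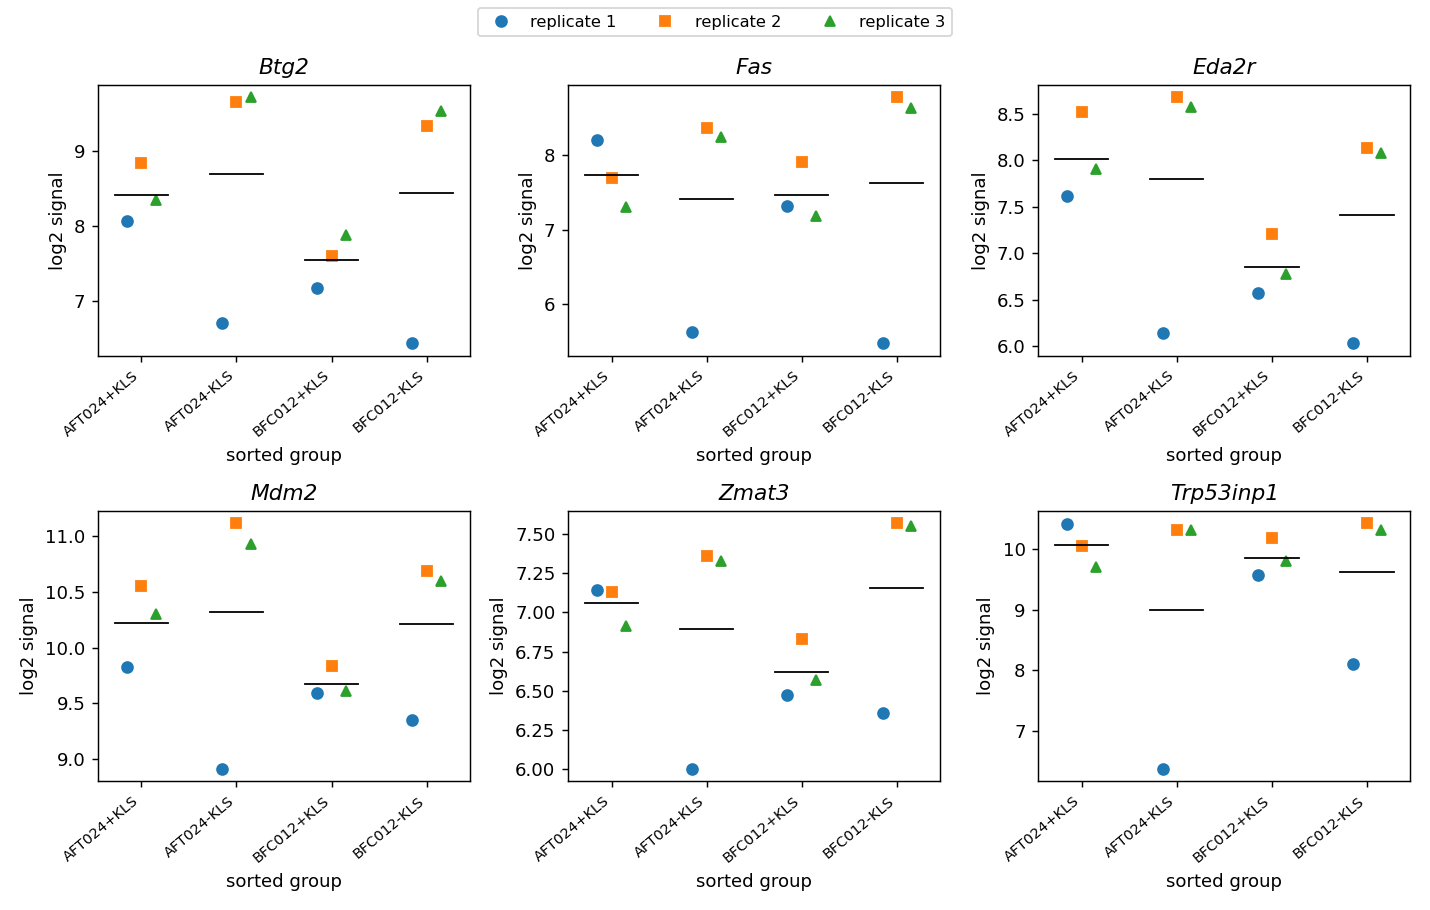
Points give the log2 signal of 6 p53 targets in each sorted array by group and replicate, and horizontal bars the mean of 3 arrays. Replicate 1 of both -KLS groups is the lowest array for Fas (5.63 and 5.47) and Btg2 (6.71 and 6.44), while replicates 2 and 3 of the -KLS groups are above the +KLS arrays for Btg2 and Mdm2.

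Whether the lines differed in their response to KLS cells was tested by the interaction of line and co-culture. With all arrays 0 of the 29 genes passed, beside 0.0401% of all genes (0.01% higher and 0.0301% lower), and 2 had an unadjusted p below 0.05, beside 7.85%. Without replicate 1 of all 4 groups, 1 passed, beside 2.95%, 1.41% higher and 1.54% lower. It was Cdkn2c, whose difference with KLS cells was lower in AFT024 than in BFC012 (-0.72, adjusted p = 0.0433), while 0 of 25 proliferation genes were higher and 12 lower in the same term.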

How the data were processed

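Affymetrix mouse gene 1.0 ST arrays were used, each with 100 ng of Trizol-extracted, biotin-labelled RNA, per the labels' protocols. The authors deposited log2 signals per probe set, and the submitters' processing notes name RMA and Partek with no version or setting. Quantiles matched within 4 sets of arrays and differed between them. Of 35556 probe sets, 21789 named 1 gene. Differences were fitted with limma 3.58.1 in R 4.3.3 (lmFit, contrasts, eBayes; two-sided, Benjamini-Hochberg over 19938 genes, threshold 0.05). Line pairs came from 1 fit to 39 confluent arrays and sorted contrasts from 1 fit to 12 arrays; F tests used the lines of 1 set, and support used 12 line means. Figures were drawn with matplotlib 3.10.9, and the fits were tested on simulated data. With 3 arrays in each group, precision is limited by their number.

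The genes followed and the 7 further gene lists were chosen with earlier results of these data known. The genes named were Mdm2, Cdkn2a and Cdkn2b, and for each contrast up to 8 genes per direction past the threshold with the largest difference and no overlap of arrays; others are named after their values were seen, as are those named for the arrays that stand apart and for the fits without them. The rule also named Trp53 and Cdkn1a, which were not analysed here. Same-numbered arrays deviated together (each correlation above 0.1 over genes) in the AGM pair (0.535, 0.327 and 0.468), the bone marrow pair (0.323, 0.116 and 0.435) and the sorted pair without KLS cells (0.671, 0.517 and 0.466), which was read as pairing by number. Between arrays of different number the correlation reached 0.103, 0.194 and 0.501 in these pairs. It exceeded the lowest same-number value in the bone marrow and sorted pairs, so pairing by number is uncertain there. Alternatives changed the arrays of the fit, the probe set rule, the normalization, a filter on dim genes, array weights, the block and the replicates.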

Additional observations from a re-analysis of the deposited data

Results flagged for a closer look

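In 16 of the 29 genes the difference between the supportive and the less- or non-supportive line varied among the AGM, fetal liver and bone marrow pairs of the first set (limma, 2 contrasts of differences tested together, adjusted p below 0.05, a test added after the data were seen). The range of the 3 differences, in log2 units, was 2.39 for Perp, 1.75 for Cdkn2a, 1.41 for Trp53inp1, 1.38 for Fas, 1.27 for Ak1, 1.25 for Dcxr, 1.09 for Cdkn2c and 1.02 for Cdkn2b. It was 0.95 for Ptprv, 0.90 for Ddb2, 0.87 for Rrm2b, 0.74 for Ckap2, 0.70 for Pmaip1, 0.63 for Sesn1, 0.62 for Ei24 and 0.51 for Tnfrsf10b. Cdkn2a differed by 1.51 in the AGM pair, 0.32 in the fetal liver pair and -0.24 in the bone marrow pair, and Perp by 0.49, -0.71 and 1.68. Without BFC012 replicate 1, the adjusted p was 0.148 for Trp53inp1, 0.113 for Ei24 and 0.0744 for Tnfrsf10b, so that these 3 no longer passed, while Ak1, whose fetal liver difference became 1.76, passed at 1.85e-10.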

How the results depend on the processing

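The count of listed genes past the threshold depended on which arrays shared the fit. The confluent pairs shared 1 estimate of the spread per gene over 39 arrays. Leaving out BFC012 replicate 1 therefore kept the differences of pairs without BFC012 as they were. For 2012 against AFT011 the median difference of the listed genes was -0.036 in both fits. Only the estimate of the spread and the p-values changed in such pairs. What else the counts depended on was not tested. Where no share of all genes stands beside a count, that share is not given here. A change in such a count cannot be read as particular to the listed genes. With only the arrays of the groups compared it became 5 for confluent AFT024 against BFC012, 13 for 2012 against AFT011, 19 for AM14-1C4 against AM30-3F4 and 12 for AFT024+KLS against BFC012+KLS. With only the arrays of the normalization set it became 7 for AFT024 against BFC012, 3 for BMC9 against BMC10, 16 for 2012 against AFT011 and 18 for AM14-1C4 against AM30-3F4. Array weights gave 8 for the AGM pair, 15 for 2012 against AFT011, 9 for the sorted pair without KLS cells, 11 for the sorted pair with them and 4 for BFC012+KLS against BFC012-KLS. Quantile normalization of all 51 arrays together gave 1 for the sorted pair without KLS cells. With BFC012 replicate 1 left out, chosen after the data were seen, 12 genes passed for 2012 against AFT011 (beside 28% of all genes) and 25 in the F test over 6 lines (beside 45.5%). Without replicate 1 of the sorted groups, 7 passed in the pair without KLS cells (beside 19.3% of all genes) and 16 in the pair with them (23.8%). In the same fit 7 passed for KLS cells in AFT024 (6.06%), 16 in BFC012 (7.9%) and 1 in the interaction (2.95%).

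With the replicate number as a block, the count became 9 in the AGM pair, beside 11.1% of all genes, and 5 in the sorted pair without KLS cells, beside 15.8%. There the numbers were read as pairing the arrays. In the bone marrow pair, read in the same way, it was 8 and not 7, beside 10.6%. Where arrays share only a number, the block gave 5 for AFT024 against BFC012, beside 20.5% of all genes, and 11 for 2012 against AFT011, beside 22.1%. It gave 20 for AM14-1C4 against AM30-3F4, beside 44%, and 14 for the sorted pair with KLS cells, beside 12.3%.

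Leaving out each replicate in turn gave 3 to 5 genes in the AGM pair, 8 to 14 in AFT024 against BFC012, 4 to 9 in BMC9 against BMC10, 6 to 8 in 2012 against AFT011, 18 to 20 in OP9 against BFC, 9 to 10 in AM14-1C4 against AM30-3F4, 0 to 4 in the sorted pair without KLS cells, 4 to 9 in the pair with them and 0 to 2 for KLS cells in BFC012. The F test over 6 lines gave 6 to 25, beside 29.2% to 43.2% of all genes, and the F test over 5 lines 26 to 27, beside 54.3% to 60%. For KLS cells in AFT024 and for the interaction the count stayed at 0.

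Direction changed in 15 values, all of Mdm2 or Cdkn2b and none past the threshold on either side. With replicates left out in turn, Mdm2 ran from -0.25 to 0.25 in AFT024 against BFC012, with 0.25 without BFC012 replicate 1 and 0.03 without AFT024 replicate 2, and it was 0.07 with array weights. It ran from -0.11 to 0.03 in 2012 against AFT011. In the sorted pair without KLS cells it ran from -0.32 to 0.81, with -0.32, -0.29 and -0.19 without BFC012-KLS replicate 1, AFT024-KLS replicate 2 or AFT024-KLS replicate 3. For KLS cells in AFT024 it ran from -0.80 to 0.30, with 0.10 without AFT024+KLS replicate 1 and 0.30 and 0.21 without AFT024-KLS replicate 2 or 3, and in the interaction from -0.27 to 0.87. Cdkn2b ran from -0.11 to 0.40 in BMC9 against BMC10, with -0.11 and -0.01 without BMC9 replicate 1 or BMC10 replicate 3, and from -0.27 to 0.03 for KLS cells in BFC012, and it was -0.12 for KLS cells in AFT024 without replicate 1 of the sorted groups. Over the single genes named, 1004 values kept their direction and side of the threshold, 73 no longer passed and 17 newly passed. Beside the genes named with their comparisons, those that no longer passed in some alternatives were Dcxr in 6 and Pmaip1 in 4 of 14 for AM14-1C4 against AM30-3F4, Cdkn2c in 4 and Pmaip1 in 2 of 14 for the AGM pair, Xpc in 5 of 13 for AFT024 against BFC012 and in 4 of 14 for 2012 against AFT011, and Rrm2b in 5, Pmaip1 in 4 and Cdkn2b in 2 of 13 for the sorted pair with KLS cells. Cdkn2c in the sorted pair without KLS cells and Eda2r in OP9 against BFC each did so in 1.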
